A study of Mus musculus with 6 samples.

Results

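Differentiation without drug was examined in C2C12, a mouse myoblast line that withdraws from the cell cycle and fuses into multinucleated myotubes when serum is reduced. The comparison sets 2 libraries from cells kept 4 days in differentiation medium with DMSO (5% horse serum) against 2 libraries from untreated day 0 cells in growth medium (10% fetal bovine serum). These are 4 of the series' 6 libraries. The other two come from day 4 cells given 1 mM 4-phenylbutyric acid, a compound whose action on myoblasts is the study's subject; they took part in the filter, the scaling and the shared estimate of the spread, and with the 4 libraries alone 17062 genes were tested. All cells are of 1 line, labelled wild type and with the same batch number. Day 0 and day 4 differ in serum, in time and in DMSO at once, so these cannot be told apart. Members of the comparison are all genes of the deposited count table, of which 17433 of 43074 had enough counts to be tested.

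As background, a myoblast that differentiates rebuilds most of its surface and interior: it becomes electrically excitable, stops making DNA and reduces the machinery that growth needs. The myogenic factors of the MyoD family bind E-boxes, and MEF2 proteins bind an A- and T-rich site, in the control regions of muscle genes. E2F factors and the CCAAT-binding factor NF-Y act at the promoters of many genes that growing cells use. The account below passes over sarcomere and cell-cycle genes and follows other families: channels, surface receptors, signalling enzymes, chromatin proteins, the cytoskeleton, metabolism, protein synthesis and defence.

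Totals in the 4 libraries were 47908926 and 69736941 counts at day 0 and 63808876 and 74697397 at day 4. Each library held between 3.138% and 3.428% of its counts in mitochondrial genes, and the first principal component, with 89% of the variance, separated day 0 from day 4. Replicates of a group differed by more than sampling noise (chi-square per degree of freedom 3.773 at day 0 and 6.641 with DMSO), so no library was a copy of another. Whether a group's 2 libraries came from separate dishes is not stated, so p-values measure only the spread between these libraries, which may be technical. All 12 myotube markers tested were called higher, and their summed level was 335 and 327 CPM at day 0 and 8636 and 9158 CPM at day 4. In whole-culture RNA, fewer cells of a type and less RNA per cell cannot be told apart.

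Levels are given as CPM, a gene's counts scaled to the size of its library after TMM scaling, and they are compared for 1 gene at a time, since CPM is not per length. A gene is called where edgeR's quasi-likelihood test gave a Benjamini-Hochberg adjusted p under 0.05 over all tested genes. By that rule 11564 genes (66.3%) were called, 5886 higher (33.8%) and 5678 lower (32.6%) at day 4. With 2 in 3 genes called, a second rule that also asks for at least a 2-fold change is the more telling: 3825 genes (21.9%) passed, 2294 higher (13.2%) and 1531 lower (8.78%). The libraries of the 2 groups did not overlap for 81.9% of tested genes. A family's share is read below against these backgrounds. A stricter filter, of 10 counts in each library of a group and 1 CPM, left 2392 genes at 2-fold or more, and a test against 2-fold itself 2445. A family median that any of 12 other settings moved by more than 1.5 times, or across 0, is followed below by its range over those settings. Counts moved likewise, in small and large families. Over the settings 1 to 4 TRP, mucolipin and Piezo channels and 2 to 5 hexose and monocarboxylate transporters rose by at least 2-fold. So did 19 to 34 cadherins and protocadherins and 6 to 12 kinesins and dyneins. The median log2 fold change of all tested genes was 0.023, and the median size of a called change was 0.63. Rises ran further than falls: 1072 genes rose and 450 fell by at least 4-fold, and 378 rose and 57 fell by at least 16-fold.

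**Figure D1:**
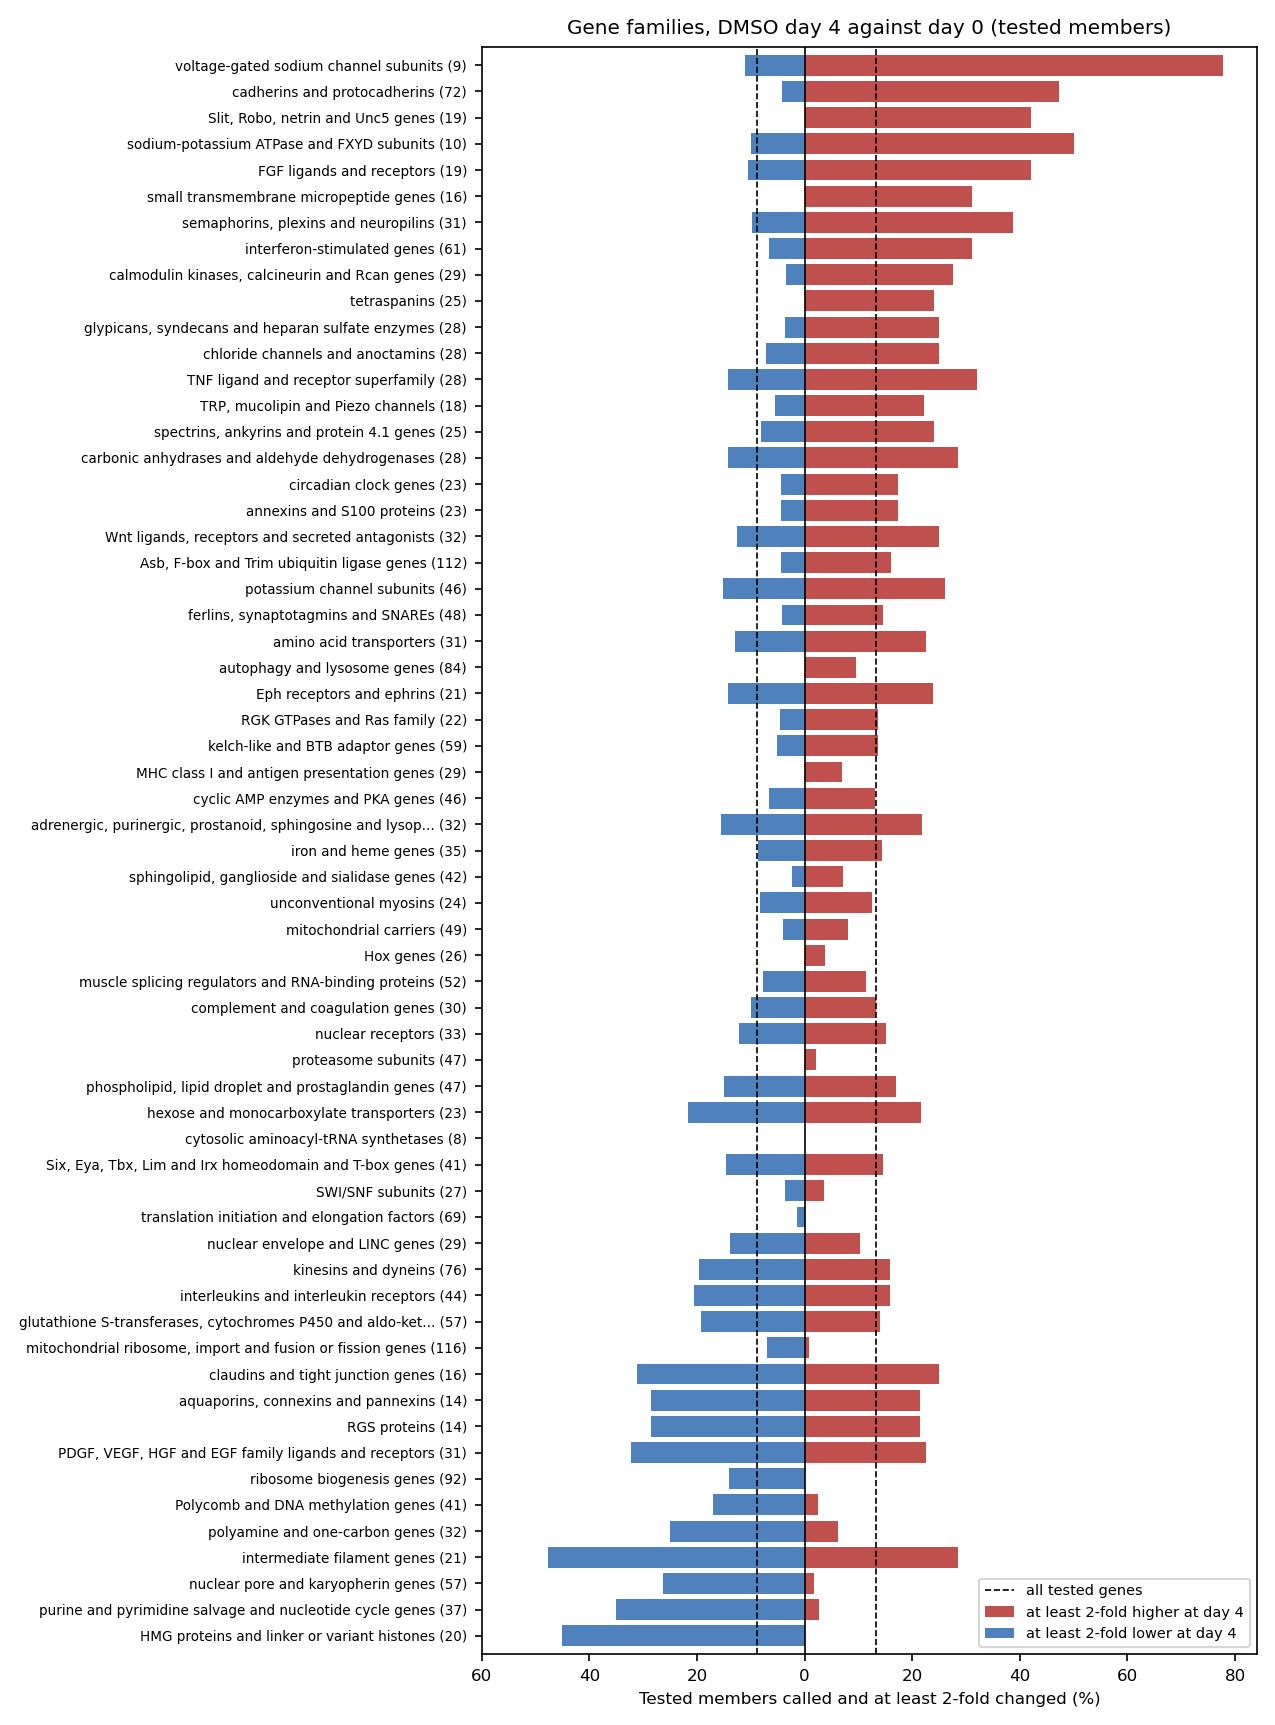
Share of the tested members of each gene family (tested members in brackets, families with at least 8, of which 1 is not shown) that were called and at least 2-fold higher (right) or lower (left) at DMSO day 4 than at day 0; dashed lines mark the shares of all 17433 tested genes, 13.2% and 8.78%. Voltage-gated sodium channels and cadherins lie at the rising end, and histone variants, nucleotide enzymes and nuclear pore genes at the falling end.

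Promoter sequence was compared between the genes that rose and fell by at least 2-fold, because both groups are large. RefSeq windows of 250 bases before to 50 after a start site (build GRCm38.p6) were at hand for 12189 tested genes, 15575 windows in all. The E-box CAGCTG stood in 24.5% of the windows of rising genes, 14.2% of those of falling genes and 16.2% of all. The MEF2 site stood in 5.01%, 1.68% and 2.04%. Among genes at least 16-fold higher the shares were 31.8% and 10.5%. In the other direction, CCAAT, the letters bound by NF-Y, was in 44.3% of falling, 33.9% of rising and 37.6% of all windows. The E2F-type letters TTTCCCGC were in 3.73% of falling, 0.775% of rising and 1.78% of all, and TTTGGCGC in 1.75%, 0.207% and 0.803%. Among genes at least 16-fold lower, which had 48 windows, CCAAT stood in 27.1%, and TTTCCCGC and TTTGGCGC in 0%, each below its share of all windows. Of the remaining motifs, CACCTG stood in 22.1% of rising, 18.7% of falling and 18% of all windows, CATTCC in 17.3%, 12% and 12.8%, and the CArG box in 2.27%, 1.90% and 1.43%. TGACGTCA stood in 1.45%, 2.74% and 2.74%, and TGACTCA in 5.48%, 6.55% and 4.26%. Both strands were searched, a window counted once, and motifs may overlap each other. Median GC content also differed, at 56% in rising, 58% in falling and 59.7% in all windows, and its part in these shares was not tested. A match is a description of letters and not evidence of a bound factor.

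Myoz2, Klhl41 and Prkag3 rose and Fbxo5 and Phf19 fell, and their windows show the letters in place. Each is given as the 250 bases before the start site, 5′ to 3′ on the gene's own strand, from RefSeq on GRCm38.p6. Capitals mark CAGCTG and the MEF2 site in Myoz2 and Klhl41, CAGCTG in Prkag3, CCAAT in Fbxo5 (present as its reverse complement) and TTTCCCGC in Phf19 (also as its reverse complement). Myoz2, at chr3:123034988-123035237 (minus strand), encodes a Z-disc protein that binds calcineurin and alpha-actinin. Klhl41, at chr2:69669870-69670119 (plus strand), and Prkag3, at chr1:74748956-74749205 (minus strand), encode a sarcomere-linked kelch protein and a muscle subunit of AMP-activated kinase. Fbxo5, at chr10:5805466-5805715 (minus strand), encodes an inhibitor of the anaphase-promoting complex, and Phf19, at chr2:34913977-34914226 (minus strand), a Polycomb partner.
Myoz2: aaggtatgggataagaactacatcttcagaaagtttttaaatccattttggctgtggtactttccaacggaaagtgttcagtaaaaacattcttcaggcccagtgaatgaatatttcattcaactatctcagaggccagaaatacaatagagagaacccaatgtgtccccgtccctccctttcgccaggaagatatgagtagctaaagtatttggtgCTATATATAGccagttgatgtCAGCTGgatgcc
Klhl41: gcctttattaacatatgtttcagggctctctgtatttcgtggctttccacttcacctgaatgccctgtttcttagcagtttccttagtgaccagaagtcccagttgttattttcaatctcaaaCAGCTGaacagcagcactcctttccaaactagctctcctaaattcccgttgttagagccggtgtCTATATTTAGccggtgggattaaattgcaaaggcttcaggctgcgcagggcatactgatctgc
Prkag3: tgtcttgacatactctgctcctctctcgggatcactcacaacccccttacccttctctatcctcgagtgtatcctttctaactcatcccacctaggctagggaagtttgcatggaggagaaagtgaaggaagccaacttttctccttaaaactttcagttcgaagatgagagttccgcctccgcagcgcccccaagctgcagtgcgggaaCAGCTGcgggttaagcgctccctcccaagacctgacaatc
Fbxo5: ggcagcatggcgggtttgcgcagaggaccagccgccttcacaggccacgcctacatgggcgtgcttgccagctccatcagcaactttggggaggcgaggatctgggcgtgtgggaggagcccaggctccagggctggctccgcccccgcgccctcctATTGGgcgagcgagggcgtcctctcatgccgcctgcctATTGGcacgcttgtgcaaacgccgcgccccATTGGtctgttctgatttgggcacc
Phf19: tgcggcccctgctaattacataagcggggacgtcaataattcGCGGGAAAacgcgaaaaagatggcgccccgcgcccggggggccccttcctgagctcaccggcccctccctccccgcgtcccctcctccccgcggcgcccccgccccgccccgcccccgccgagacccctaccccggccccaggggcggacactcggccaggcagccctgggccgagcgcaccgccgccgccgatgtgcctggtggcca
Counted from the start site, the E-box of Myoz2 began at base -12 and its MEF2 site at -33, and those of Klhl41 at -127 and -63. Prkag3 had its E-box at -40, Fbxo5 its 3 CCAAT matches at -93, -55 and -25, and Phf19 its single match at -208. Myoz2 stood at 0.123 and 0.128 CPM at day 0 and 33.5 and 34.8 CPM at day 4 (log2 fold change 8.06, SE 0.15, edgeR adjusted p = 5.03e-32). Its level was near 0 before differentiation and the groups were far apart. The windows shown were picked by hand, and each holds a match. Most windows of rising genes hold neither motif: CAGCTG stood in 24.5% of them and the MEF2 site in 5.01%. Of the windows of falling genes, CCAAT stood in 44.3% and TTTCCCGC in 3.73%. Windows of Scn4a and Trim72, which rose, hold neither CAGCTG nor a MEF2 site. Windows of Dkc1 and Kif2c, which fell, hold a MEF2 site.

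Voltage-gated sodium channels and the sodium-potassium pump family had the highest shares of 2-fold rises of the families plotted (77.8% and 50%), and the other channels follow with their own values. Of 9 voltage-gated sodium channel subunits tested, 8 were called higher and 1 lower, with 7 higher and 1 lower by at least 2-fold and a median log2 fold change of 3.08. Scn4a, the main sodium channel of skeletal muscle fibres, stood at 0.0823 and 0.185 CPM at day 0 and 26.7 and 26.6 CPM at day 4 (log2 fold change 7.52, SE 0.16, edgeR adjusted p = 4.80e-30). It went from a trace to a clear signal in both libraries. Scn7a, an atypical member, stood at 0.988 and 1.27 CPM at day 0 and 18.2 and 19.6 CPM at day 4 (log2 fold change 4.04, SE 0.12, edgeR adjusted p = 1.36e-25). Scn10a, best known from sensory neurons, rose from a mean of 0.478 to 6.15 CPM, and Scn9a was the lone member called lower, from 0.778 to 0.169 CPM. In the sodium-potassium pump and its FXYD modulators, 10 were tested, 7 higher and 1 lower, 5 and 1 of these by at least 2-fold (median 1.22, range 0.45 to 1.93). Fxyd6 and Fxyd5 went opposite ways, Fxyd6 to 6.69 CPM from at most 3 counts in either day 0 library and Fxyd5 from 17.9 to 6.46 CPM.

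Potassium channels split: of 46 subunits tested, 14 were called higher and 10 lower, with a median of 0.019, range -0.042 to 0.29. By at least 2-fold, 12 rose (26.1%) and 7 fell (15.2%), both above the backgrounds of 13.2% and 8.78%. Over the settings 8 to 13 rose and 4 to 7 fell by at least 2-fold, so 7 is the top of its range. The 2 calcium-activated channels named by the rule moved in opposite directions. Kcnn3, of small conductance, stood at 0.741 and 1.08 CPM at day 0 and 42.2 and 47.99 CPM at day 4 (log2 fold change 5.58, SE 0.11, edgeR adjusted p = 3.08e-29). Kcnn4, of intermediate conductance, stood at 95.7 and 96.3 CPM at day 0 and 22.5 and 20.7 CPM at day 4 (log2 fold change -2.15, SE 0.0521, edgeR adjusted p = 2.38e-28). The inward rectifier Kcnj2 fell from 19.05 to 7.59 CPM. Chloride channels and anoctamins (28 tested, 14 higher and 9 lower, 7 and 2 of these by at least 2-fold, median 0.18) held Ano5, a gene mutated in a limb-girdle dystrophy, at 14.6 and 14.2 CPM at day 0 and 136 and 129 CPM at day 4 (log2 fold change 3.20, SE 0.0467, edgeR adjusted p = 8.80e-35), and the bestrophin Best1, up from 0.401 to 8.43 CPM. TRP, mucolipin and Piezo channels (18 tested, 10 higher and 2 lower, 4 and 1 of these by at least 2-fold, median 0.21, range 0.18 to 0.34) included the touch-sensing channel Piezo2, up from 60.6 to 114 CPM. Of 14 aquaporins, connexins and pannexins, 4 were called higher and 6 lower, and 3 rose and 4 fell by at least 2-fold (median -0.11, range -0.69 to -0.023). Connexin 43 (Gja1), the chief gap junction protein of myoblasts, stood at 186 and 192 CPM at day 0 and 88.9 and 77.7 CPM at day 4 (log2 fold change -1.18, SE 0.0474, edgeR adjusted p = 3.10e-14), and the water channel Aqp1 fell from 239.7 to 106 CPM.

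Nutrient transporters were called higher or lower at about the shares of all genes, 33.8% and 32.6%. By at least 2-fold, 21.7% of hexose and monocarboxylate transporters rose and 21.7% fell, against 13.2% and 8.78% of all genes. For amino acid transporters these shares were 22.6% and 12.9%. Whether one carrier replaced another was not tested. For hexose and monocarboxylate transporters, 23 were tested, 8 higher and 8 lower, 5 and 5 of these by at least 2-fold, with a median of -0.10, range -0.27 to -0.046. The glucose transporter family member Slc2a6 stood at 1.28 and 1.57 CPM at day 0 and 23.9 and 23.5 CPM at day 4 (log2 fold change 4.04, SE 0.11, edgeR adjusted p = 7.67e-27). The monocarboxylate transporter family members Slc16a11 and Slc16a13 fell, from 27.3 to 6.17 CPM and from 32.98 to 6.13 CPM. Of 31 amino acid transporters, 11 were called higher and 9 lower, and 7 rose and 4 fell by at least 2-fold (median 0.05, range 0.0051 to 0.067). The cationic carrier Slc7a2 rose from 4.21 to 13.97 CPM and the neutral carrier Slc43a2 from 11.3 to 30.6 CPM. The glutamate carrier Slc1a3 fell from 29.5 to 10.9 CPM and Slc6a17 from 32.7 to 8.10 CPM.

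**Figure D2:**
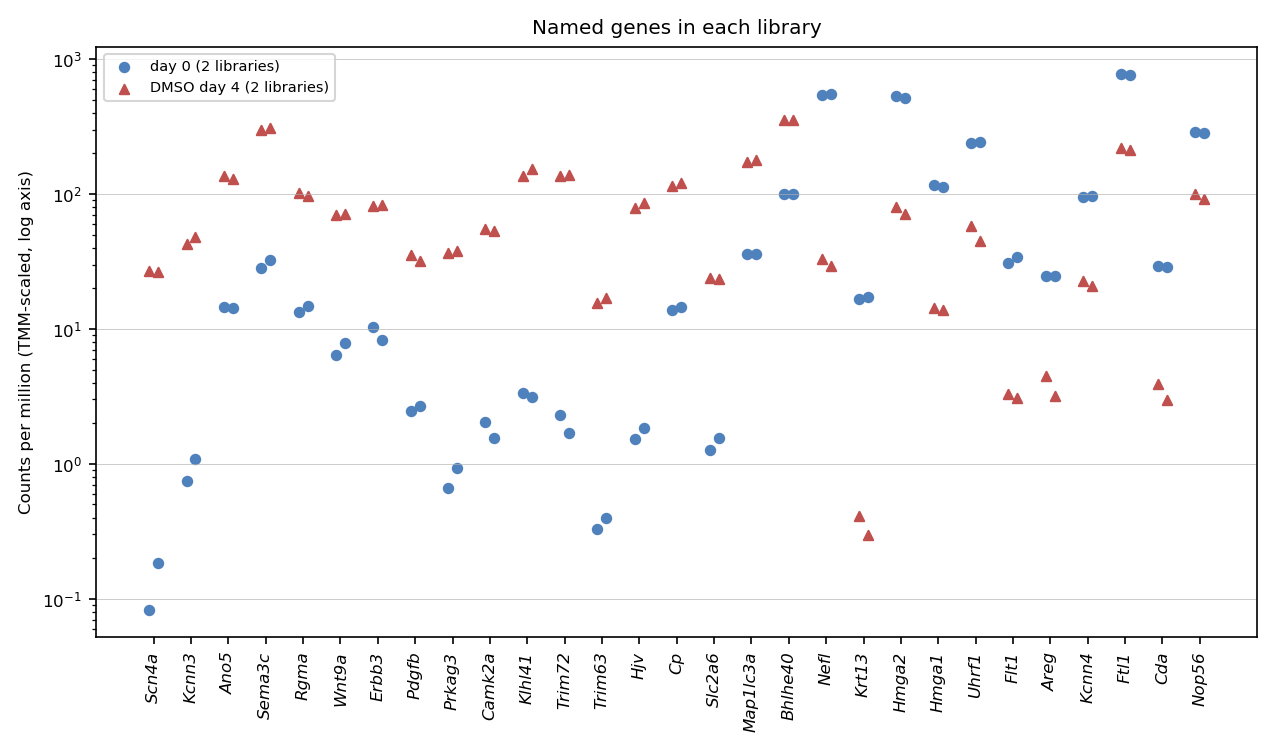
CPM in each of the 4 libraries for 29 genes named in the text, on a log axis; circles are day 0 and triangles DMSO day 4. These genes were named under a rule that asks for at least a 2-fold change and no overlap between the groups. The separation seen here therefore follows from that choice. Over all tested genes, the groups did not overlap for 81.9%.

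At the cell surface, adhesion and guidance genes were called higher more often than lower. Cadherins and protocadherins were the largest such family: of 72 tested, 44 were called higher and 6 lower, with 34 higher and 3 lower by at least 2-fold and a median of 1.02. Over the settings 19 to 34 rose and 1 to 4 fell by at least 2-fold, so 34 is the top of its range. Cdh23 stood at 3.89 and 3.75 CPM at day 0 and 18.8 and 18.6 CPM at day 4 (log2 fold change 2.30, SE 0.0930, edgeR adjusted p = 1.05e-21), and Pcdhb20 at 1.71 and 1.88 CPM at day 0 and 9.64 and 9.33 CPM at day 4 (log2 fold change 2.39, SE 0.13, edgeR adjusted p = 6.66e-18). Many protocadherins are near-identical copies at low level, so reads may have been split among them. Of 31 semaphorins, plexins and neuropilins, which steer axons and cells, 20 were called higher and 8 lower, and 12 rose and 3 fell by at least 2-fold (median 0.61, range 0.39 to 0.75). The secreted Sema3c stood at 28.4 and 32.4 CPM at day 0 and 299 and 310.1 CPM at day 4 (log2 fold change 3.32, SE 0.0447, edgeR adjusted p = 3.18e-26). Sema3d rose from 14.1 to 86.1 CPM, whereas the membrane-bound Sema5a and Sema6b fell from 79.8 to 31.1 CPM and from 7.69 to 1.38 CPM. Among Slit, Robo, netrin and Unc5 genes and their relatives (19 tested, 10 higher and 3 lower, 8 and 0 of these by at least 2-fold, median 0.68, range 0.55 to 1.02), the neogenin ligand Rgma stood at 13.2 and 14.7 CPM at day 0 and 102 and 97.2 CPM at day 4 (log2 fold change 2.83, SE 0.0521, edgeR adjusted p = 8.10e-32). Netrin 1 (Ntn1) rose from 52.5 to 151 CPM. Eph receptors and ephrins balanced (21 tested, 8 higher and 8 lower, 5 and 3 of these by at least 2-fold, median -0.032, range -0.16 to 0.039): Epha4 fell from 15.9 to 2.90 CPM and the ligand Efna1 from 10.1 to 4.71 CPM, while Epha1 rose from 4.89 to 14.1 CPM and the kinase-dead Ephb6 from 21.9 to 50.1 CPM.

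Tetraspanins, which organise membrane microdomains, leaned up (25 tested, 16 higher and 4 lower, 6 and 0 of these by at least 2-fold, median 0.63). Cd82 stood at 179 and 179.5 CPM at day 0 and 581 and 566 CPM at day 4 (log2 fold change 1.68, SE 0.0298, edgeR adjusted p = 3.00e-32), and Tspan32 rose from 5.04 to 32.9 CPM. For glypicans, syndecans and heparan sulfate enzymes (28 tested, 14 higher and 6 lower, 7 and 1 of these by at least 2-fold, median 0.11, range 0.079 to 0.18), Sdc2 rose from 185 to 541 CPM and the extracellular sulfatase Sulf1 from 117 to 275 CPM, and the sulfotransferase Hs3st5 fell from 8.47 to 1.37 CPM. Claudins and tight junction genes gave 16 tested, 7 higher and 9 lower, 4 and 5 of these by at least 2-fold (median -0.23). There the junctional adhesion molecule F11r rose from 24.3 to 61.3 CPM, and Ocln fell from 5.68 to 1.52 CPM.

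**Figure D3:**
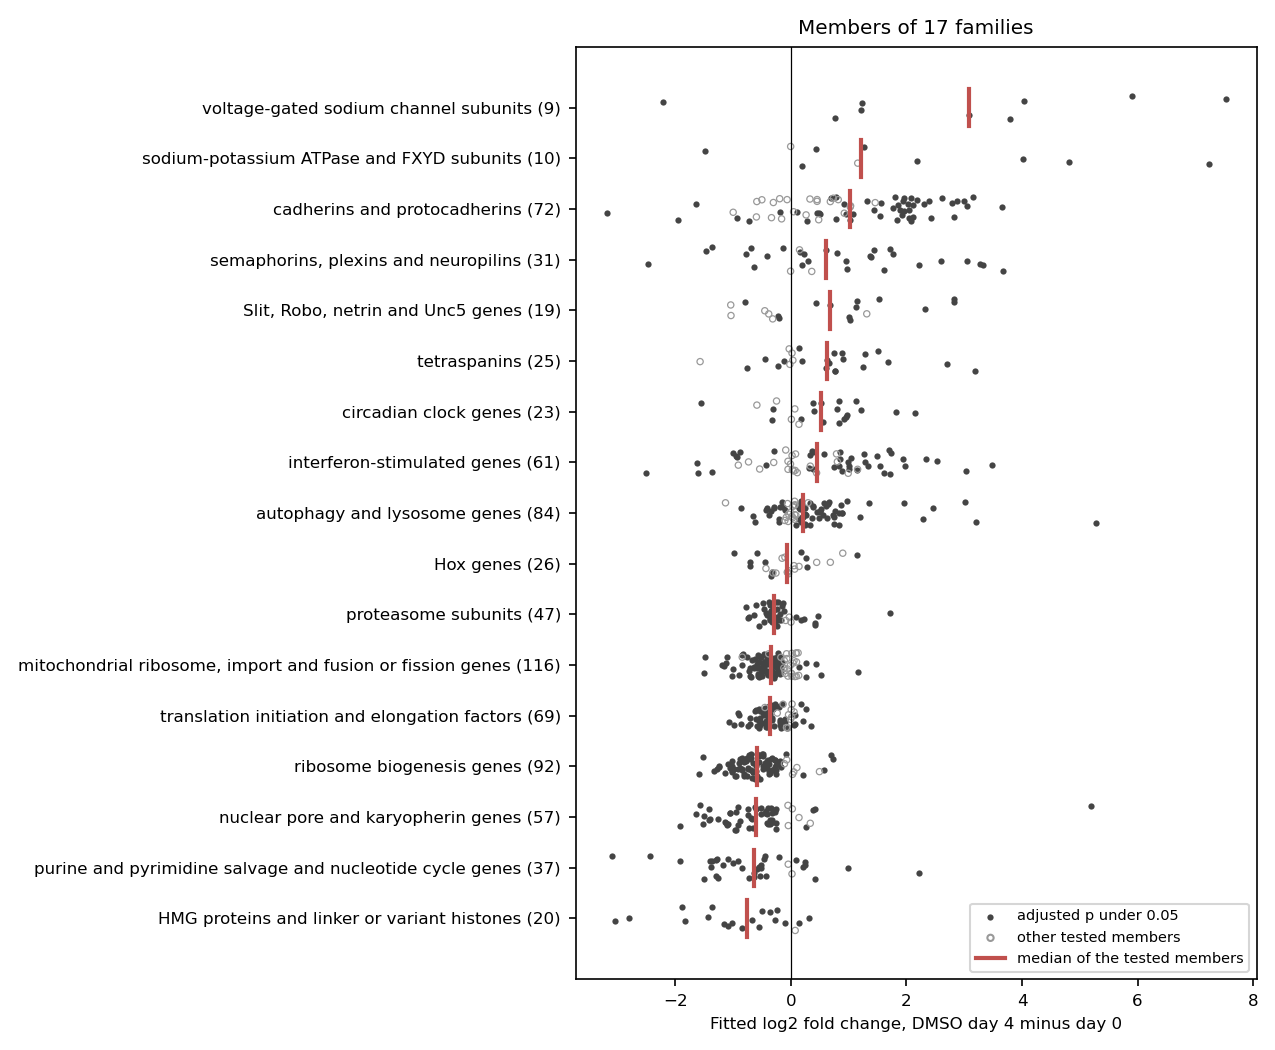
Fitted log2 fold change (DMSO day 4 minus day 0) of every tested member of 17 families; filled points passed the adjusted p threshold of 0.05, open points did not, and the red bar is the median. Points of the sodium channel, cadherin and semaphorin families spread to the right of 0, and those of the ribosome biogenesis and nuclear pore families lie mostly to the left.

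Growth factor signalling changed by ligand and by receptor. In the FGF family 19 were tested, 9 higher and 3 lower, 8 and 2 of these by at least 2-fold, with a median of 0.66, range 0.30 to 1.05. Fgf7, an epithelial growth factor made by stromal cells, stood at 15.2 and 15.4 CPM at day 0 and 3.38 and 2.32 CPM at day 4 (log2 fold change -2.44, SE 0.14, edgeR adjusted p = 2.42e-15). The receptor Fgfr3 rose from 2.37 to 12.3 CPM, the metabolic hormone Fgf21 from 0.125 to 5.07 CPM and Fgf2 from 6.89 to 19.4 CPM, and Fgf5 fell from 9.31 to 4.40 CPM. Of 31 genes for PDGF, VEGF, HGF and EGF family ligands and receptors, 14 were called higher and 12 lower, and 7 rose and 10 fell by at least 2-fold (median -0.032, range -0.064 to 0.23). The neuregulin receptor Erbb3 stood at 10.3 and 8.29 CPM at day 0 and 82.03 and 83.3 CPM at day 4 (log2 fold change 3.17, SE 0.0649, edgeR adjusted p = 2.97e-25). The VEGF receptor Flt1 stood at 30.9 and 33.96 CPM at day 0 and 3.28 and 3.06 CPM at day 4 (log2 fold change -3.36, SE 0.0984, edgeR adjusted p = 7.05e-26). These are opposite moves of 2 growth factor receptors. The ligand Pdgfb rose from 2.56 to 33.6 CPM and the EGF-type ligand Areg fell from 24.7 to 3.83 CPM. Wnt ligands, receptors and antagonists (32 tested, 18 higher and 8 lower, 8 and 4 of these by at least 2-fold, median 0.29, range 0.27 to 0.50) included Wnt9a at 6.42 and 7.83 CPM at day 0 and 69.7 and 71.3 CPM at day 4 (log2 fold change 3.29, SE 0.0656, edgeR adjusted p = 6.29e-29). Axin2, a negative regulator that Wnt signalling induces, rose from 2.13 to 9.94 CPM, and the antagonist Dkk2 fell from 23.4 to 6.43 CPM.

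Receptors for small mediators gave 32 tested, 13 higher and 8 lower, 7 and 5 of these by at least 2-fold (median 0.39, range 0.056 to 0.42). The prostaglandin F receptor Ptgfr fell from 5.44 to 0.709 CPM and the lysophosphatidate receptor Lpar2 from 5.55 to 0.892 CPM, while the adenosine receptor Adora2b rose from 12.7 to 27.2 CPM and the ATP-gated channel P2rx5 from 3.85 to 12.3 CPM. Within the cyclic AMP pathway, 46 genes were tested, 18 higher and 14 lower, 6 and 3 of these by at least 2-fold, median 0.017, range -0.037 to 0.11. The protein kinase A inhibitor Pkia stood at 73.1 and 74.2 CPM at day 0 and 179 and 191 CPM at day 4 (log2 fold change 1.33, SE 0.0362, edgeR adjusted p = 8.20e-27). The anchoring proteins Akap6 and Akap12 parted: Akap6, found at the nuclear envelope of muscle, rose from 43.7 to 123.02 CPM and Akap12 fell from 90.3 to 21.7 CPM. The phosphodiesterase Pde3b fell from 68.6 to 27.4 CPM.

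Of the 7 AMP-activated kinase subunits, 3 were called higher and 4 lower, and 2 rose and 0 fell by at least 2-fold (median -0.21). The gamma-3 subunit Prkag3, whose E-box is shown above, stood at 0.658 and 0.926 CPM at day 0 and 36.7 and 37.9 CPM at day 4 (log2 fold change 5.51, SE 0.11, edgeR adjusted p = 5.29e-31). The alpha-2 subunit Prkaa2 rose from 2.32 to 6.83 CPM. Calmodulin kinases, calcineurin and Rcan genes (29 tested, 12 higher and 11 lower, 8 and 1 of these by at least 2-fold, median 0.059, range 0.012 to 0.10) held Camk2a at 2.06 and 1.57 CPM at day 0 and 54.9 and 53.05 CPM at day 4 (log2 fold change 4.93, SE 0.0864, edgeR adjusted p = 1.93e-32). Camk1g rose from 0.355 to 25.2 CPM and the upstream kinase Camkk1 fell from 26.4 to 12.2 CPM. RGK and Ras family GTPases (22 tested, 8 higher and 9 lower, 3 and 1 of these by at least 2-fold, median -0.0058, range -0.036 to 0.073) included the calcium channel inhibitors Rrad, up from 2.11 to 19.3 CPM, and Gem, up from 4.83 to 10.4 CPM. RGS proteins (14 tested, 5 higher and 6 lower, 3 and 4 of these by at least 2-fold, median 0.14, range -0.12 to 0.18) included Rgs10, down from 5.39 to 2.52 CPM, and Rgs17, down from 6.84 to 2.95 CPM.

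Interleukin and TNF family genes, ligands and receptors together, were called in both directions. Of 44 interleukins and interleukin receptors tested, 12 were called higher (27.3%) and 13 lower (29.5%), below the 33.8% and 32.6% of all genes. By at least 2-fold, 7 rose (15.9%) and 9 fell (20.5%), against 13.2% and 8.78% (median 0.14, range 0.066 to 0.15). The interleukin 1 receptor antagonist Il1rn stood at 30.6 and 31.8 CPM at day 0 and 5.44 and 4.68 CPM at day 4 (log2 fold change -2.63, SE 0.0950, edgeR adjusted p = 9.65e-23). Il12rb1 fell from 10.8 to 2.13 CPM, and Il18 and Il17rd rose from 5.14 to 13.4 CPM and from 10.6 to 26.5 CPM. In the TNF superfamily 28 were tested, 11 higher (39.3%) and 8 lower (28.6%), 9 and 4 of these by at least 2-fold, median 0.17, range 0.058 to 0.26. Eda2r, the receptor of ectodysplasin A2, stood at 28.2 and 29.6 CPM at day 0 and 98.1 and 108 CPM at day 4 (log2 fold change 1.83, SE 0.0485, edgeR adjusted p = 4.83e-26). Cd40 fell from 17.4 to 5.31 CPM and Tnfrsf25 rose from 2.31 to 6.94 CPM.

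In the nucleus, small chromatin proteins fell. Of 20 HMG proteins and linker or variant histones, 2 were called higher and 17 lower, with 0 higher and 9 lower by at least 2-fold and a median of -0.76. Hmga2, an architectural protein of growing and embryonic cells, stood at 529.7 and 518 CPM at day 0 and 80.03 and 70.7 CPM at day 4 (log2 fold change -2.80, SE 0.0442, edgeR adjusted p = 2.64e-21). Its relative Hmga1 stood at 116 and 112 CPM at day 0 and 14.2 and 13.8 CPM at day 4 (log2 fold change -3.03, SE 0.0531, edgeR adjusted p = 1.93e-32). Hmgb2 fell from 184 to 52.1 CPM and the variant histone H2az1 from 469 to 183 CPM, whereas the replacement histone H3f3a was called higher at 320.0 to 397 CPM. Of 41 Polycomb and DNA methylation genes, 13 were called higher and 23 lower, with 1 higher and 7 lower by at least 2-fold (median -0.26). Uhrf1, which guides maintenance methylation, stood at 239 and 244 CPM at day 0 and 57.4 and 44.9 CPM at day 4 (log2 fold change -2.24, SE 0.14, edgeR adjusted p = 5.75e-04). Phf19, shown above with its E2F-type letters, fell from 31.7 to 7.97 CPM, and the methyltransferase Ezh1 rose from 30.5 to 66.6 CPM. In Uhrf1, as in the mitotic kinesin Kif2c at 98 and 98.6 CPM at day 0 and 28.3 and 20.6 CPM at day 4 (log2 fold change -2.01, SE 0.16, edgeR adjusted p = 9.77e-04), the 2 DMSO libraries differed more than the day 0 pair. The SWI/SNF remodelling complex was near balance (27 tested, 9 higher and 11 lower, 1 and 1 of these by at least 2-fold, median 0.014, range -0.014 to 0.035), with the neural-type subunit Dpf1 down from 6.08 to 2.22 CPM.

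The transport gates of the nucleus fell as well. Of 57 nuclear pore and karyopherin genes, 4 were called higher and 48 lower, with 1 higher and 15 lower by at least 2-fold and a median of -0.61. The Ran exchange factor Rcc1 stood at 131 and 136 CPM at day 0 and 37.99 and 32.7 CPM at day 4 (log2 fold change -1.92, SE 0.0524, edgeR adjusted p = 1.37e-21). The membrane nucleoporin Ndc1 stood at 93.7 and 96.99 CPM at day 0 and 32.7 and 28.7 CPM at day 4 (log2 fold change -1.64, SE 0.0522, edgeR adjusted p = 8.81e-24). The one gene that rose by at least 2-fold was Nup210, a nucleoporin of differentiating muscle, from 0.101 to 3.50 CPM. It is below the level asked of named genes and was picked after its values were seen. Nuclear envelope and LINC genes gave 29 tested, 10 higher and 16 lower, 3 and 4 of these by at least 2-fold (median -0.30). The lamin Lmnb1 fell from 189 to 55.3 CPM and Nemp1 from 44.6 to 15.2 CPM. Plpp7 rose from 3.09 to 16.8 CPM, and Tmem38a, a potassium-type channel of the sarcoplasmic reticulum and nuclear membrane, stood at 11.9 and 11.7 CPM at day 0 and 102 and 111 CPM at day 4 (log2 fold change 3.18, SE 0.0521, edgeR adjusted p = 2.81e-33).

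Falling families of this kind moved together with DNA replication genes: in the same libraries 9 of 10 tested Mcm genes were called lower, 8 of them by at least 2-fold. How far that accounts for the chromatin, pore and nucleotide families was not tested.

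Clock genes leaned up. Of 23 tested, 15 were called higher and 3 lower, with 4 higher and 1 lower by at least 2-fold (median 0.51). The repressor Bhlhe40 stood at 99.5 and 101 CPM at day 0 and 356 and 354 CPM at day 4 (log2 fold change 1.83, SE 0.0320, edgeR adjusted p = 1.93e-32). Per2 rose from 8.86 to 20.5 CPM, Cry2 from 14.2 to 30.8 CPM and the nuclear receptor Rora from 2.10 to 9.21 CPM, while Clock itself was called lower at 128 to 104 CPM. Each group was taken at 1 time point, and the hour of harvest is not given in the sources used here. Other nuclear receptors balanced (33 tested, 12 higher and 12 lower, 5 and 4 of these by at least 2-fold, median 0.011, range -0.017 to 0.052): the oestrogen receptor Esr1 rose from 3.56 to 11.4 CPM, and Rorb and the adipogenic receptor Pparg fell from 53.8 to 20.5 CPM and from 17.9 to 7.99 CPM. Hox genes, which record body position, moved little: of 26 tested, 4 were called higher and 7 lower, and 1 rose and 0 fell by at least 2-fold (median -0.057, range -0.15 to -0.017). Hoxc11 had the largest change of those at 5 CPM or more, at 33.6 and 34.6 CPM at day 0 and 17.3 and 17.2 CPM at day 4 (log2 fold change -0.98, SE 0.0647, edgeR adjusted p = 1.15e-15). T-box, Lim, Eya, Irx and related developmental factors gave 41 tested, 13 higher and 19 lower, 6 and 6 of these by at least 2-fold (median -0.092, range -0.23 to -0.025). Tbx15 and Tbx18 rose from 26.9 to 65.7 CPM and from 26.5 to 68.6 CPM, and Lhx6 and Dlx2 fell from 14.7 to 6.08 CPM and from 5.29 to 1.22 CPM.

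Intermediate filament genes moved both ways, and by large amounts. Of 21 intermediate filament genes, 8 were called higher and 10 lower, with 6 higher and 10 lower by at least 2-fold and a median of -0.64, range -0.83 to -0.29. Vimentin (Vim), the mesenchymal filament, stood at 7257 and 7180.0 CPM at day 0 and 3399.9 and 3196 CPM at day 4 (log2 fold change -1.13, SE 0.0273, edgeR adjusted p = 3.54e-27). Desmin (Des), the muscle filament, stood at 877 and 885 CPM at day 0 and 2226 and 2198 CPM at day 4 (log2 fold change 1.33, SE 0.0263, edgeR adjusted p = 6.98e-31). Nestin (Nes) rose from 1481 to 3131 CPM and syncoilin (Sync) from 64.2 to 167 CPM. The neurofilament gene Nefl stood at 539 and 546 CPM at day 0 and 32.9 and 29.1 CPM at day 4 (log2 fold change -4.13, SE 0.0490, edgeR adjusted p = 4.34e-23), and Nefm fell from 287 to 18.2 CPM. Keratin Krt13 fell from 16.9 to 0.354 CPM. Neuron and Schwann cell markers summed to 285 and 285 CPM at day 0 and 228 and 209 CPM at day 4; 3 of the 7 tested were called higher and 3 lower. Of the 4 not tested, Sox10 had no count in any of the 4 libraries, Snap25 at most 5 counts, Elavl3 at most 8 and Rbfox3 at most 15. Their part in the neurofilament level was not tested.

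Motor and membrane-skeleton genes moved both ways. By at least 2-fold, 15.8% of kinesins and dyneins rose and 19.7% fell, against 13.2% and 8.78% of all genes. For unconventional myosins these shares were 12.5% and 8.33%, and for spectrins, ankyrins and protein 4.1 genes 24% and 8%. For ferlins, synaptotagmins and SNAREs they were 14.6% and 4.17%, and for annexins and S100 proteins 17.4% and 4.35%. Kinesins and dyneins (76 tested, 32 higher and 23 lower, 12 and 15 of these by at least 2-fold, median 0.19) held falling mitotic motors such as Kif20b, from 106 to 25.3 CPM, and rising transport genes such as the dynein chain Dync1i1, at 12.9 and 12.8 CPM at day 0 and 67.1 and 67.2 CPM at day 4 (log2 fold change 2.39, SE 0.0554, edgeR adjusted p = 7.62e-29), and Kifc2, from 1.99 to 7.48 CPM. Unconventional myosins (24 tested, 10 higher and 5 lower, 3 and 2 of these by at least 2-fold, median 0.41, range 0.14 to 0.47) included Myo18b, which striated muscle needs, up from 5.89 to 32.96 CPM, and Myo18a, up from 154 to 390.4 CPM. The brush-border myosin Myo7b fell from 13.1 to 2.05 CPM. For spectrins, ankyrins and protein 4.1 genes (25 tested, 14 higher and 7 lower, 6 and 2 of these by at least 2-fold, median 0.27), Ank1 rose from 26.1 to 107 CPM and the thin-filament cap Tmod1 from 10.9 to 54.3 CPM. Their partners Add2 and Epb41 fell from 145 to 46.2 CPM and from 39.1 to 14.2 CPM. Ferlins, synaptotagmins and SNAREs (48 tested, 27 higher and 10 lower, 7 and 2 of these by at least 2-fold, median 0.21) included the membrane repair protein dysferlin (Dysf) at 12.4 and 14.2 CPM at day 0 and 76.2 and 73.6 CPM at day 4 (log2 fold change 2.48, SE 0.0565, edgeR adjusted p = 4.42e-29), and Vamp5 rose from 47.2 to 169 CPM. Annexins and S100 proteins (23 tested, 11 higher and 7 lower, 4 and 1 of these by at least 2-fold, median 0.18, range 0.085 to 0.21) included S100a1, a calcium sensor of striated muscle, up from 15.3 to 31.7 CPM, and S100a16, up from 58.1 to 139 CPM.

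Some ubiquitin adaptors of muscle rose steeply, within 2 families that leaned up by calls. Of kelch-like and BTB genes 44.1% were called higher and 25.4% lower, against 33.8% and 32.6% of all genes. For Asb, F-box and Trim genes these shares were 46.4% and 23.2%. By at least 2-fold, 13.6% and 16.1% of the 2 families rose, against 13.2% of all genes. In turn 5.08% and 4.46% fell, against 8.78%. Kelch-like and BTB genes gave 59 tested, 26 higher and 15 lower, 8 and 3 of these by at least 2-fold (median 0.16, range 0.089 to 0.19). Klhl41 stood at 3.37 and 3.11 CPM at day 0 and 136 and 154 CPM at day 4 (log2 fold change 5.49, SE 0.0693, edgeR adjusted p = 1.31e-27), and its relative Klhl40 rose from 0.680 to 32.2 CPM; both are nemaline myopathy genes. Kbtbd8 fell from 5.198 to 2.29 CPM and Kbtbd11 from 25.3 to 9.72 CPM. Asb, F-box and Trim genes gave 112 tested, 52 higher and 26 lower, 18 and 5 of these by at least 2-fold (median 0.14). Trim72, which seals torn membrane, stood at 2.28 and 1.70 CPM at day 0 and 136 and 139 CPM at day 4 (log2 fold change 6.14, SE 0.0680, edgeR adjusted p = 6.08e-37). Trim63, the ligase MuRF1, rose from 0.364 to 16.3 CPM. Fbxo5, whose window above holds 3 CCAAT matches, stood at 58.1 and 58.5 CPM at day 0 and 13.1 and 11.9 CPM at day 4 (log2 fold change -2.22, SE 0.0645, edgeR adjusted p = 5.39e-26), and Fbxo48 fell from 5.72 to 1.51 CPM.

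Metabolic genes of growth fell. Of 37 purine and pyrimidine salvage and nucleotide genes, 7 were called higher and 28 lower, with 1 higher and 13 lower by at least 2-fold and a median of -0.63. Cytidine deaminase (Cda) stood at 29.5 and 28.5 CPM at day 0 and 3.91 and 2.95 CPM at day 4 (log2 fold change -3.09, SE 0.10, edgeR adjusted p = 5.20e-24), and adenosine deaminase (Ada) fell from 6.41 to 1.20 CPM. Polyamine and one-carbon genes (32 tested, 9 higher and 18 lower, 2 and 8 of these by at least 2-fold, median -0.18, range -0.31 to -0.14) included spermidine synthase (Srm), down from 98.5 to 34.1 CPM, and the serine enzyme Shmt1, down from 33.9 to 7.26 CPM. Azin2, which protects ornithine decarboxylase, rose from 16.5 to 34.2 CPM. Genes of the mitochondrial ribosome, import and dynamics fell in small steps: of 116, 6 were called higher and 85 lower, but only 8 fell by at least 2-fold (median -0.35). Mrps6 fell from 46.9 to 16.6 CPM and Mtfr2 from 14.9 to 5.37 CPM, and Mief2, a fission receptor, rose from 12.3 to 27.5 CPM. Mitochondrial carriers (49 tested, 17 higher and 22 lower, 4 and 2 of these by at least 2-fold, median -0.12) included the uncoupling protein Ucp2 at 7.70 and 8.77 CPM at day 0 and 49.4 and 46.6 CPM at day 4 (log2 fold change 2.53, SE 0.0651, edgeR adjusted p = 1.54e-27). Slc25a29 rose from 13.6 to 50.6 CPM and the dicarboxylate carrier Slc25a10 fell from 65.99 to 26.7 CPM.

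Iron handling genes were more often called lower than higher, with steep rises of a few. Of 35 iron and heme genes, 8 were called higher and 20 lower, and 5 rose and 3 fell by at least 2-fold (median -0.25). Hemojuvelin (Hjv), a BMP co-receptor made by muscle and liver, stood at 1.52 and 1.85 CPM at day 0 and 78.3 and 85.2 CPM at day 4 (log2 fold change 5.57, SE 0.0778, edgeR adjusted p = 2.29e-35). Ceruloplasmin (Cp), the copper ferroxidase, stood at 13.7 and 14.5 CPM at day 0 and 115 and 119.7 CPM at day 4 (log2 fold change 3.05, SE 0.0488, edgeR adjusted p = 1.37e-33). Ferritin light chain (Ftl1) fell from 772 to 216 CPM and the reductase Steap1 from 27.1 to 10.4 CPM. In lipid metabolism, 47 phospholipid, lipid droplet and prostaglandin genes were tested, 20 higher and 20 lower, 8 and 7 of these by at least 2-fold, median 0.037, range 0.01 to 0.063. The lipase inhibitor G0s2 stood at 3.48 and 3.39 CPM at day 0 and 34.4 and 31.9 CPM at day 4 (log2 fold change 3.27, SE 0.0837, edgeR adjusted p = 1.31e-27), and the fatty acid transporter Cd36 rose from 0.187 to 9.48 CPM. Fabp5 and the droplet protein Plin4 fell from 80.8 to 24.7 CPM and from 24.1 to 7.63 CPM. Sphingolipid and ganglioside genes (42 tested, 15 higher and 11 lower, 3 and 1 of these by at least 2-fold, median 0.048, range 0.019 to 0.069) included the ganglioside GM3 synthase St3gal5, up from 94.95 to 213 CPM. Carbonic anhydrases and aldehyde dehydrogenases (28 tested, 12 higher and 10 lower, 8 and 4 of these by at least 2-fold, median 0.036, range -0.079 to 0.18) included Car8 and Aldh3a1, down from 22.1 to 1.05 CPM and from 43.5 to 7.83 CPM, and Aldh3b1 and Aldh6a1, up from 17.6 to 71.7 CPM and from 6.96 to 18.1 CPM. Glutathione transferases, cytochromes P450 and aldo-keto reductases (57 tested, 19 higher and 17 lower, 8 and 11 of these by at least 2-fold, median 0.15) included Gsta4, down from 62.2 to 11.4 CPM, the steroid enzyme Cyp11a1, down from 11.7 to 2.60 CPM, and Cyp2d22 and Cyp46a1, up from 1.91 to 6.52 CPM and from 2.03 to 5.08 CPM.

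The machinery of protein synthesis fell broadly and mostly by less than 2-fold. Of 92 ribosome biogenesis genes, 4 were called higher and 82 lower, with 0 higher and 13 lower by at least 2-fold and a median of -0.59. The snoRNP protein Nop56 stood at 288 and 283 CPM at day 0 and 99.1 and 91.02 CPM at day 4 (log2 fold change -1.59, SE 0.0368, edgeR adjusted p = 1.70e-28), and the pseudouridine synthase Dkc1 fell from 97.95 to 34.3 CPM. The genes called higher were Wdr13, Nol3, Nol4 and Wdr83, which the symbol patterns took in and which are not known as ribosome assembly factors. They were looked at after their values were seen. The 82 called lower were not checked in the same way and may hold such genes too. Of 69 translation initiation and elongation factors, 7 were called higher and 51 lower, with 0 higher and 1 lower by at least 2-fold (median -0.36). Eif5a stood at 1037 and 1026 CPM at day 0 and 492 and 489 CPM at day 4 (log2 fold change -1.07, SE 0.0279, edgeR adjusted p = 2.05e-27). The poly(A)-binding protein Pabpc1 fell from 2234 to 1229 CPM. All 8 genes of the aminoacyl-tRNA synthetase list were called lower (100%, against 32.6% of all genes), none by 2-fold (median -0.29). The scaffold Eef1e1 fell the furthest, from 47.8 to 29.1 CPM. The list took in 8 genes of the table and is not the whole synthetase family, so its share describes these genes only. Proteasome genes also fell in small steps: of 47, 7 were called higher and 37 lower, and 1 rose and 0 fell by at least 2-fold (median -0.28). The assembly chaperone Psmg1 fell from 29.3 to 17.1 CPM. The 7 called higher, named after their values were seen, included the immunoproteasome subunits Psmb8 and Psmb10 and the activators Psme1 and Psme2, at log2 fold changes of 1.72, 0.41, 0.18 and 0.46.

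Lysosomal genes leaned the other way by calls, though not by large changes. Of 84 autophagy and lysosome genes, 52 were called higher (61.9%) and 15 lower (17.9%), against 33.8% and 32.6% of all genes. By at least 2-fold, 8 rose (9.52%, below the 13.2% of all genes) and 0 fell (median 0.20). Map1lc3a, an autophagosome protein, stood at 35.8 and 35.7 CPM at day 0 and 172 and 179 CPM at day 4 (log2 fold change 2.29, SE 0.0386, edgeR adjusted p = 5.52e-33), and cathepsin F (Ctsf) rose from 2.48 to 9.59 CPM. Muscle splicing regulators and other RNA-binding proteins (52 tested, 13 higher and 29 lower, 6 and 4 of these by at least 2-fold, median -0.28) held rising splicing factors, Rbm24 at 1.46 and 1.42 CPM at day 0 and 34.3 and 45.04 CPM at day 4 (log2 fold change 4.79, SE 0.18, edgeR adjusted p = 2.62e-08) and Rbfox1 from 0.449 to 13.1 CPM. Mbnl3 and Celf4 fell from 27.04 to 6.95 CPM and from 21.4 to 4.27 CPM. Micropeptide genes (16 tested, 8 higher and 4 lower, 5 and 0 of these by at least 2-fold, median 0.11, range 0.071 to 0.47) included the fusion peptide Mymx at 0.823 and 0.712 CPM at day 0 and 60.6 and 67.1 CPM at day 4 (log2 fold change 6.39, SE 0.0961, edgeR adjusted p = 2.15e-34), and Smim5 rose from 0.125 to 7.47 CPM.

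Interferon-stimulated and antigen presentation genes were called higher more often than lower, while complement and coagulation genes were not. Of 61 interferon-stimulated genes, 31 were called higher and 10 lower, with 19 higher and 4 lower by at least 2-fold (median 0.45). Gbp2, an interferon-induced GTPase, stood at 1.23 and 0.926 CPM at day 0 and 5.37 and 5.32 CPM at day 4 (log2 fold change 2.33, SE 0.18, edgeR adjusted p = 5.51e-14). Oasl2 rose from 2.23 to 6.94 CPM, and the DNA sensor Cgas fell from 13.9 to 4.49 CPM. MHC class I and antigen presentation genes gave 29 tested, 20 higher and 1 lower, 2 and 0 of these by at least 2-fold (median 0.33), a broad rise of small size. The trimming enzyme Erap1 went from 14.7 to 29.4 CPM (log2 fold change 1.00, SE 0.0669, edgeR adjusted p = 2.08e-15), just under 2-fold. Class I genes are close copies of each other, so their separate values are uncertain. Complement and coagulation genes (30 tested, 9 higher and 7 lower, 4 and 3 of these by at least 2-fold, median 0.018, range -0.015 to 0.11) included the C1 inhibitor Serping1 at 3.004 and 3.09 CPM at day 0 and 22.7 and 22.3 CPM at day 4 (log2 fold change 2.88, SE 0.0917, edgeR adjusted p = 8.55e-25). Cd59a rose from 4.54 to 11.3 CPM and the protein C receptor Procr fell from 10.7 to 3.16 CPM. All 3 tested prolactin family genes fell by at least 2-fold, among them Prl2c2 and Prl2c3, whose near-identical sequences make their separate values uncertain.

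Beyond families, the largest gains in level were in matrix and muscle genes: fibronectin (Fn1) went from 4801 to 10267 CPM, collagen III (Col3a1) from 1677 to 4234 CPM, the imprinted RNA H19 from 276 to 4081 CPM, and osteonectin (Sparc) from 1349.9 to 3604 CPM. Perlecan (Hspg2) went from 984 to 2422 CPM, the muscle integrin Itga7 from 855 to 2412 CPM, titin (Ttn) from 211 to 2653 CPM and actin Acta1 from 38.2 to 1727 CPM. The largest loss after vimentin was that of osteopontin (Spp1), from 2439 to 991 CPM. Pyruvate kinase (Pkm) went from 3114 to 1871 CPM, gamma-actin (Actg1) from 4421 to 3218 CPM, galectin 1 (Lgals1) from 3173 to 1984 CPM, beta-actin (Actb) from 4258 to 3168 CPM and prothymosin (Ptma) from 1617 to 559.6 CPM. The chaperones Hspa8 and Hsp90ab1 went from 2664 to 1681 CPM and from 3351 to 2412 CPM. By fold, the steepest falls included P-selectin (Selp) at 25.8 and 25.8 CPM at day 0 and 0.349 and 0.216 CPM at day 4 (log2 fold change -6.53, SE 0.16, edgeR adjusted p = 3.93e-28), and the plasminogen activator inhibitor Serpinb2 at 29.8 and 28.6 CPM at day 0 and 0.428 and 0.243 CPM at day 4 (log2 fold change -6.46, SE 0.15, edgeR adjusted p = 1.31e-28). Itgb7, an integrin best known from leukocytes, fell from 39.5 to 1.55 CPM, and the unnamed transcript 1700012B09Rik from 35.7 to 0.770 CPM. Among the steepest rises, the stretch-responsive Ankrd2 stood at 0.617 and 0.442 CPM at day 0 and 65.02 and 82.4 CPM at day 4 (log2 fold change 7.16, SE 0.24, edgeR adjusted p = 5.66e-06), and perinatal myosin Myh8 went from 0.180 to 42.5 CPM. Only 3 genes went from at most 3 counts in each day 0 library to at least 5 CPM in each DMSO library: Fxyd6, Dhrs7c and Mybpc2. Against a floor of 3 counts per library, Fxyd6 was at least 128-fold higher. No gene met the mirror rule for being switched off. The first count was 10 without day 0 replicate 2 and 0 at a level of 10 CPM, and the second was 1 with either DMSO library left out.

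Genes commonly used as qPCR references were examined because a fixed reference is assumed in many differentiation studies. Of 26 tested, 20 were called lower and 3 higher, with a median log2 fold change of -0.48, against 32.6% lower and 33.8% higher over all genes. Gapdh stood at 365 and 361 CPM at day 0 and 266 and 255 CPM at day 4 (log2 fold change -0.48, SE 0.0339, edgeR adjusted p = 4.91e-14). Actb stood at 4228 and 4288 CPM at day 0 and 3342 and 2994 CPM at day 4 (log2 fold change -0.43, SE 0.0421, edgeR adjusted p = 3.45e-06). Both were lower in each day 4 library than in either day 0 library. Pgam1 and Tubb5 fell by more than 2-fold, from 854 to 393 CPM and from 1438 to 684 CPM. Pgk1, Tfrc, Rplp0, Polr2a, Rpl13a, Ywhaz and Gusb had log2 fold changes of -0.94, -0.84, -0.76, -0.75, -0.68, -0.66 and -0.62. Those of Ppia, Cyc1, Rps18, Hprt, Tbp, Atp5b, Rer1 and Canx were -0.58, -0.54, -0.49, -0.43, -0.39, -0.32, -0.28 and -0.18. Among those called higher, B2m and Eef2 had changes of 0.18 and 0.062, and the call of Eef2 was lost under 8 of the 12 other settings. The smallest changes were those of Tuba1a (log2 fold change 0.0079, SE 0.0294, edgeR adjusted p = 0.83), Csnk2a2 (log2 fold change -0.016, SE 0.0414, edgeR adjusted p = 0.76) and Sdha (log2 fold change 0.049, SE 0.0326, edgeR adjusted p = 0.19). The sign of Tuba1a turned under DESeq2 size factors, library size scaling, the DESeq2 test and 2 left-out libraries, and that of Csnk2a2 under the stricter filter. CPM values are relative to each library's total, so a change in RNA per cell is not measured.

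**Figure D4:**
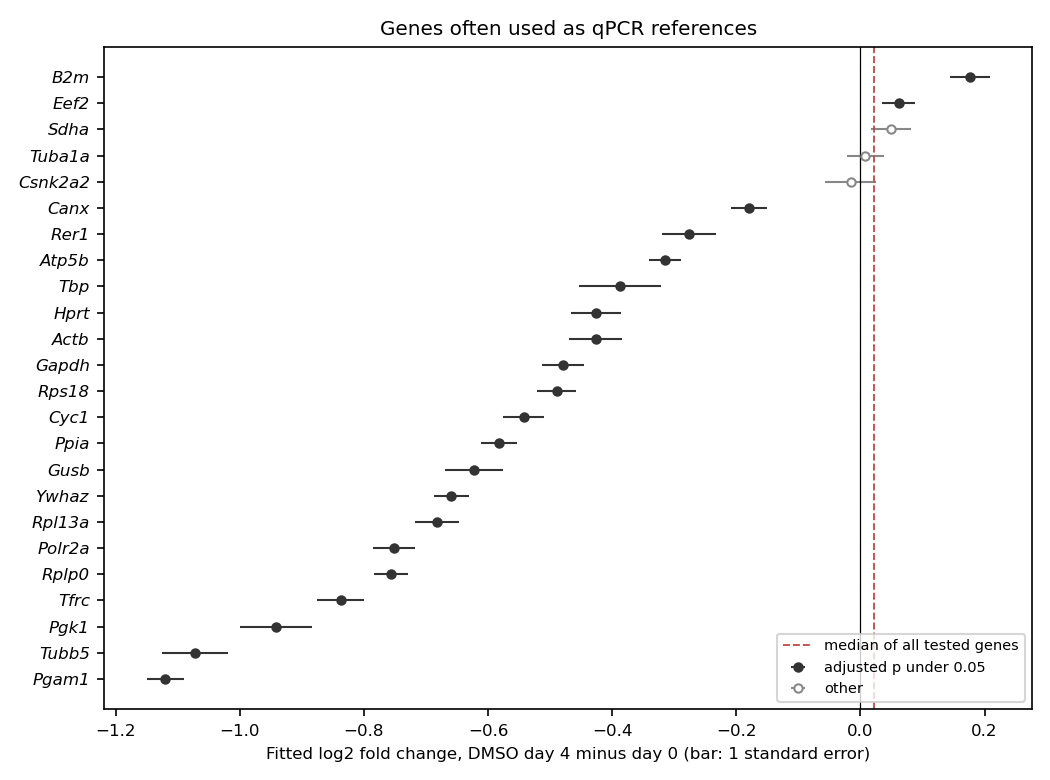
Fitted log2 fold change with 1 standard error for 24 of the 26 genes often used as qPCR references; filled points passed the adjusted p threshold of 0.05 and the dashed line is the median of all tested genes, 0.023. Most points lie left of 0, and Tuba1a, Csnk2a2 and Sdha lie nearest to it.

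Markers of other cells were read as a check of the culture. Of the 11 myoblast markers, 7 were called higher and 2 lower (Met and Myf5), with Ncam1 going from 128 to 799 CPM. Fibroblast markers rose along with the matrix genes: 9 of the 10 tested were called higher, and their sum was 568 and 564 CPM at day 0 and 1029 and 1059 CPM at day 4. Decorin (Dcn) went from 8.15 to 281 CPM and Pi16 from 0.274 to 7.72 CPM, while Pdgfra was called lower at 13.9 to 11.1 CPM, Tcf21 had no count and Thy1 at most 2 counts in any library. Their part in the rise of matrix genes was not tested. Of 9 smooth muscle markers 6 were called higher, led by Tagln, from 101 to 554 CPM, and the sum was 2005 and 2029.9 CPM at day 0 and 5333 and 5084 CPM at day 4. Desmin (Des), which is also on the myoblast list, gave 877 and 885 CPM at day 0 and 2226 and 2198 CPM at day 4 of that sum. The defining smooth muscle genes stayed low: Myh11 went from 0.0712 to 0.157 CPM and Myocd from 0.290 to 0.183 CPM, neither called. Endothelial markers summed to 2.94 and 2.82 CPM at day 0 and 3.53 and 3.42 CPM at day 4, and macrophage and leukocyte markers to 6.75 and 6.60 CPM at day 0 and 3.58 and 2.48 CPM at day 4, with Ptprc at no more than 3 counts and Tyrobp at 0 in each of these libraries. Adipocyte markers summed to 33.4 and 32.9 CPM at day 0 and 18.9 and 19.8 CPM at day 4 over 3 tested genes, and Cfd had no count. Osteoblast and chondrocyte markers summed to 2622 and 2657 CPM at day 0 and 1222 and 1147 CPM at day 4, and Spp1 gave 2422 and 2456 CPM at day 0 and 1024 and 957 CPM at day 4 of it.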

How the data were processed

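RNA-seq of C2C12 cells gave 1 deposited table of whole-number gene counts for 6 libraries, made by the authors from reads on GRCm39, per the submitters' processing notes. The kit was directional and started from 100 ng of total RNA, per the labels' protocols; aligner, counting tool, annotation and counting strand are not given in the sources used here. Of 43074 genes, 13014 had no count.

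Genes passing edgeR's filterByExpr were fitted with edgeR 4.0.16 (R 4.3.3): TMM scaling and the quasi-likelihood test on 3 groups of 2 libraries, with Benjamini-Hochberg adjustment over 17433 genes. The fit had 3 residual degrees of freedom and a common biological coefficient of variation of 3.743%. SEs are the log2 fold change divided by the root of F. DESeq2 1.42.0 and limma 3.58.1 gave alternatives, and figures used matplotlib 3.10.9. Same-numbered replicates did not deviate together (correlation -0.028), so no pairing was used.

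Gene lists (74: 64 families, mostly by symbol pattern, 9 marker lists and 1 of reference genes) and the named genes were chosen with earlier results of these data known. Named were up to 2 rises and 2 falls per family of at least 2-fold and 5 CPM without overlap between groups, the 10 largest changes overall by fold and by level each way, all reference genes and genes switched on; others are extra examples taken from the lists after their values were seen. List counts carry no test of their own. Some of these genes and 1 list are not reported here.

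On simulated counts for 16963 genes with the real library sizes, the test called 157 of 198 changed genes (79.3%) with 15 false calls; it found all 122 changed genes at 5 CPM or more and 35 of 76 below. The pass mark was first set at 80% of all changed genes, which the test missed, and was then replaced by marks at 5 CPM or more. Low genes were therefore the weak point in the simulation. It changed only these 198 genes and drew its counts from the fitted spread, whereas 66.3% of the real genes were called. Its shares of genes found and of false calls therefore do not carry over to the real comparison.

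In GENCODE M21, used for gene overlaps only, 5235 of 16469 matched tested genes have an exon overlapping a gene on the opposite strand. Reads of such partners cannot be told apart if strand was not used. Among genes named here these are Add2, Aldh6a1, Ank1, Axin2, Bhlhe40, Cgas, Cp, Cry2, Des, Dkc1, Dpf1, Dysf, Epb41, Epha1, Erap1, Fgf2, Fgfr3, Fn1, Ftl1, Gapdh, Gbp2, H19, H3f3a, Hmga1, Hmga2, Itga7, Kbtbd11, Kifc2, Klhl40, Mybpc2, Myo18b, Ncam1, Nefl, Nefm, Nemp1, Nol3, Nop56, Pdgfra, Pi16, Plin4, Psmb8, Psme1, Ptgfr, Rcc1, Rgma, Rora, Rps18, Rrad, Scn9a, Selp, Shmt1, Slc25a10, Slc43a2, Slc7a2, Sync, Tagln, Tbp, Tbx18, Tmod1, Trim72, Tspan32, Ttn, Ucp2 and Wdr83 (H2az1 was not matched). Host transcripts of snoRNAs or miRNAs (Hspa8, Nop56, Rpl13a, H19, Actg1, Fxyd5) and the pairs Rcc1 with Snhg3, Mrps6 with Slc5a3, and Serpinb2 with Serpinb10 share exons on 1 strand.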

Additional observations from a re-analysis of the deposited data

How the results depend on the processing

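Under 12 other settings (2 scalings, 2 filters, DESeq2, limma-voom, only the 4 libraries, the replicate block, and each of the 4 libraries left out) the counts of called genes stayed within 1.5 times of 11564. With replicate number as a block 11403 genes were called, 3761 of them by at least 2-fold, and the block changed no call of a named gene but that of Eef2, the same-numbered libraries sharing only a number. The count at 2-fold or more was 2392 (1393 higher, 999 lower) with a filter of 10 counts and 1 CPM and 2445 (1498 higher, 947 lower) when edgeR tested against 2-fold itself. Genes switched on were 0 at 10 CPM and ranged from 3 to 10 with 1 library left out (10 without day 0 replicate 2); those switched off ranged from 0 to 1. The alternative of an adjusted p under 0.01 was not run for them, since they use no test. Scaling moved the median of all genes by at most 0.028. Named genes kept their direction and call in 2853 of 2868 comparisons; the exceptions were Eef2 (8 calls lost), Sdha (called without DMSO replicate 1), Csnk2a2 (0.0018 with the stricter filter) and Tuba1a (-0.0011 with DESeq2 size factors, -0.020 with library size, -0.0013 with DESeq2, -0.026 to 0.041 with a library left out). List medians moved by more than the replicate spread without a reversal in 95 of 888 comparisons, and reversed in 4. The reversals were RGS proteins with the stricter filter, endothelial markers with the 4 libraries alone, and neuron and Schwann cell markers with each of these settings. A change of sign was counted as a reversal only where both medians exceeded that spread, a definition settled after the values were seen; by any change of sign 29 would be reversals, in 14 lists whose median was at most 0.387 in size. 

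The stricter filter, which drops low genes, gave medians of potassium channel subunits 0.29 (from 0.019), voltage-gated sodium channel subunits 2.52 (from 3.08), sodium-potassium ATPase and FXYD subunits 0.45 (from 1.22), hexose and monocarboxylate transporters -0.27 (from -0.10), aquaporins, connexins and pannexins -0.69 (from -0.11), semaphorins, plexins and neuropilins 0.39 (from 0.61), Slit, Robo, netrin and Unc5 genes 1.02 (from 0.68), cadherins and protocadherins 1.51 (from 1.02), Wnt ligands, receptors and secreted antagonists 0.50 (from 0.29), PDGF, VEGF, HGF and EGF family ligands and receptors 0.23 (from -0.032), adrenergic, purinergic, prostanoid, sphingosine and lysophosphatidate receptors 0.056 (from 0.39), RGS proteins -0.12 (from 0.14), nuclear receptors 0.028 (from 0.011), Eya, Tbx, Lim and Irx genes -0.23 (from -0.092), unconventional myosins 0.14 (from 0.41), kelch-like and BTB adaptor genes 0.091 (from 0.16), annexins and S100 proteins 0.11 (from 0.18), phospholipid, lipid droplet and prostaglandin genes 0.063 (from 0.037), mitochondrial carriers -0.10 (from -0.12), proteasome subunits -0.28 (from -0.28), autophagy and lysosome genes 0.22 (from 0.20), MHC class I and antigen presentation genes 0.36 (from 0.33), smooth muscle markers 1.42 (from 1.33), endothelial markers 1.71 (from 0.39), neuron and Schwann cell markers -0.058 (from 0.20), macrophage and leukocyte markers -1.50 (from -0.28). Library size scaling gave chloride channels and anoctamins 0.16 (from 0.18), nuclear receptors -0.017 (from 0.011), Polycomb and DNA methylation genes -0.29 (from -0.26), spectrins, ankyrins and protein 4.1 genes 0.24 (from 0.27), phospholipid, lipid droplet and prostaglandin genes 0.010 (from 0.037), mitochondrial ribosome, import and fusion or fission genes -0.38 (from -0.35), mitochondrial carriers -0.14 (from -0.12), ribosome biogenesis genes -0.62 (from -0.59), cytosolic aminoacyl-tRNA synthetases -0.32 (from -0.29), translation initiation and elongation factors -0.39 (from -0.36), proteasome subunits -0.31 (from -0.28), autophagy and lysosome genes 0.18 (from 0.20), MHC class I and antigen presentation genes 0.31 (from 0.33). DESeq2 size factors gave proteasome subunits -0.29 (from -0.28), MHC class I and antigen presentation genes 0.33 (from 0.33). The DESeq2 test gave proteasome subunits -0.29 (from -0.28), MHC class I and antigen presentation genes 0.33 (from 0.33). Limma-voom gave voltage-gated sodium channel subunits 2.80 (from 3.08), translation initiation and elongation factors -0.38 (from -0.36), smooth muscle markers 1.40 (from 1.33). The 4 libraries alone gave aquaporins, connexins and pannexins -0.40 (from -0.11), semaphorins, plexins and neuropilins 0.48 (from 0.61), kinesins and dyneins 0.15 (from 0.19), ferlins, synaptotagmins and SNAREs 0.17 (from 0.21), annexins and S100 proteins 0.085 (from 0.18), mitochondrial carriers -0.14 (from -0.12), proteasome subunits -0.29 (from -0.28), small transmembrane micropeptide genes 0.47 (from 0.11), endothelial markers -0.41 (from 0.39), neuron and Schwann cell markers -0.083 (from 0.20). With each library left out in turn, the medians that moved by more than the replicate spread, by more than 1.5 times or across 0 ranged as follows: potassium channel subunits -0.042 to 0.24, chloride channels and anoctamins 0.17 to 0.23, amino acid transporters 0.0051 to 0.065, TRP, mucolipin and Piezo channels 0.23 to 0.34, Eph receptors and ephrins -0.16 to 0.039, semaphorins, plexins and neuropilins 0.51 to 0.75, cadherins and protocadherins 0.91 to 1.16, tetraspanins 0.59 to 0.65, Wnt ligands, receptors and secreted antagonists 0.31 to 0.43, PDGF, VEGF, HGF and EGF family ligands and receptors -0.064 to 0.087, adrenergic, purinergic, prostanoid, sphingosine and lysophosphatidate receptors 0.26 to 0.42, interleukins and interleukin receptors 0.066 to 0.13, nuclear receptors -0.017 to 0.052, Polycomb and DNA methylation genes -0.26 to -0.24, unconventional myosins 0.32 to 0.47, spectrins, ankyrins and protein 4.1 genes 0.24 to 0.28, kelch-like and BTB adaptor genes 0.089 to 0.19, ferlins, synaptotagmins and SNAREs 0.16 to 0.21, mitochondrial carriers -0.12 to -0.090, muscle splicing regulators and RNA-binding proteins -0.35 to -0.25, proteasome subunits -0.29 to -0.28, small transmembrane micropeptide genes 0.071 to 0.41, interferon-stimulated genes 0.40 to 0.53, MHC class I and antigen presentation genes 0.32 to 0.32, smooth muscle markers 1.32 to 1.41, endothelial markers -0.032 to 0.33, sodium-potassium ATPase and FXYD subunits 0.88 to 1.93, hexose and monocarboxylate transporters -0.15 to -0.046, aquaporins, connexins and pannexins -0.30 to -0.023, glypicans, syndecans and heparan sulfate enzymes 0.086 to 0.18, FGF ligands and receptors 0.30 to 1.05, cyclic AMP enzymes and PKA genes -0.037 to 0.11, calmodulin kinases, calcineurin and Rcan genes 0.012 to 0.10, RGS proteins 0.090 to 0.18, RGK GTPases and Ras family -0.028 to 0.073, TNF ligand and receptor superfamily 0.10 to 0.26, Hox genes -0.15 to -0.017, Eya, Tbx, Lim and Irx genes -0.16 to -0.025, SWI/SNF subunits -0.011 to 0.035, intermediate filament genes -0.83 to -0.38, polyamine and one-carbon genes -0.31 to -0.14, sphingolipid, ganglioside and sialidase genes 0.019 to 0.069, carbonic anhydrases and aldehyde dehydrogenases 0.013 to 0.18, complement and coagulation genes -0.015 to 0.11, osteoblast and chondrocyte markers -0.52 to 0.14, macrophage and leukocyte markers -0.72 to 0.076. Motif shares among genes changed at least 16-fold, chosen after the data were seen, were, for higher genes, CAGCTG 31.8%, CACCTG 28.5%, MEF2 site 10.5%, CATTCC 21.3%, CCAAT 30.8%, TTTCCCGC 0.328%, TTTGGCGC 0%, TGACGTCA 0.328%, TGACTCA 4.26%, and for lower genes, in 48 windows, CAGCTG 10.4%, MEF2 site 0%, CATTCC 4.17%, CCAAT 27.1%, TTTCCCGC 0%, TTTGGCGC 0%, TGACGTCA 0%, TGACTCA 10.4%. The causes of these shifts were not tested.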

Other observations

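A scan of symbol stems with at least 8 tested genes (255 stems, chosen after the data were seen and given without a test) picked out the protocadherin beta cluster outside muscle myosins. Of 21 tested Pcdhb genes 19 were called, and all 19 rose by at least 2-fold (90.5%, against 13.2% of all genes), with a median log2 fold change of 2.09. Their summed level was 27.1 and 29.7 CPM at day 0 and 110.9 and 113.7 CPM at day 4, and 8 of them reached 5 CPM in a group. The gamma cluster rose less: 11 of 17 Pcdhg genes were called higher and 1 lower, with a median of 0.79. Genes of both clusters are close copies, and those of the gamma cluster share exons, so their separate counts are uncertain. Lipid transporters of the Abca stem (7 of 11 at least 2-fold higher), Adamts proteases (9 of 16) and integrin alpha chains (6 of 11 higher, 1 lower) also stood above the background. At the falling end, after the Mcm helicases, were the Haus genes of the spindle (5 of 8 at least 2-fold lower), the nucleolar Nop genes (4 of 8, all 8 called lower) and the chemokines of the Ccl stem (4 of 8, with 4 called lower and 1 higher).

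Host genes of small RNAs were looked at after the Nop genes. Of 18 Snhg genes, which carry snoRNAs in their introns, 14 were called lower and 2 higher (median log2 fold change -0.64), and their sum was 346.0 and 351.6 CPM at day 0 and 232.1 and 220.5 CPM at day 4. Of 8 tested microRNA host genes 5 were called higher and 2 lower. Levels of the mature small RNAs are not measured by these libraries.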
